A study of Mus musculus with 6 samples.

Results

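The cytosolic ribosome is built from ribosomal RNA and a fixed set of ribosomal proteins, and the genes of these proteins are among the most highly transcribed genes of a proliferating cell. They were taken here as the rows named Rpl or Rps plus a number, with at most one of the letters a, l, x or y behind it, together with Rpsa, Rplp0, Rplp1 and Rplp2. The rule found 81 of 24421 gene entries, 49 of the large subunit and 32 of the small subunit. All 81 had a mean of 10 or more counts over the 6 libraries and all 81 passed the filter on low counts, as did 14778 gene entries in all. The name pattern leaves out Fau, Rack1 and Rps3a1, among others, and it takes in Rps4l, which GENCODE annotates as a transcribed processed pseudogene.

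Bulk RNA sequencing libraries came from iPSCs (induced pluripotent stem cells) of the mouse, reprogrammed cells that resemble embryonic stem cells. There were 3 libraries of SRFΔ/Δ cells (SRF KO), which lack the Srf gene, the gene of the transcription factor SRF (serum response factor), and 3 of SRFf/f cells (WT), which carry the conditional allele that has not been deleted. All cells were grown in medium with serum, and total RNA was taken with TRIzol. The labels do not say whether replicates are separate clones or cultures of 1 clone, so the p-values measure the spread between these libraries, which may be technical. Total counts were between 26321602 and 36680156 per library. Srf itself was at 3.97 ± 0.707 CPM in SRF KO against 34.5 ± 4.14 CPM in WT (SD, n = 3 each), where CPM is a count scaled to the same library total after TMM adjustment. Pluripotency genes were present throughout, with a summed level of 7819 to 8046 CPM over 15 markers in SRF KO and 9365 to 9783 CPM in WT.

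Ribosomal protein mRNAs share a layout: most are short, start at a cytosine inside a run of pyrimidines (the terminal oligopyrimidine, or TOP, motif), and are translated or held back together through mTOR signalling and the binding protein LARP1. Their transcription in growing cells is known to depend on MYC and on factors of the ETS and YY1 kind. SRF is known for another set of targets, the actin cytoskeleton and immediate-early genes, which it binds at CArG boxes. The comparison is of the 81 mRNAs between cells that lack SRF and cells that carry it, with the large and small subunit apart.

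Most ribosomal protein mRNAs had slightly negative fold changes in SRF KO, in both subunits and of similar size. The fold change was negative for 43 of 49 large subunit genes and for 32 of 32 small subunit genes, and its median was -0.12 and -0.13 on the log2 scale, against -0.01 over all genes tested. These medians correspond to changes of -8.21% and -8.63%. Calls were made at an adjusted p under 0.05, using the quasi-likelihood test of edgeR and Benjamini-Hochberg adjustment over all entries. On this basis 14 large subunit genes fell and 1 rose, while 10 small subunit genes fell and 0 rose. None of the small subunit genes was higher at an unadjusted p under 0.05, and DESeq2 and limma voom also called 0 higher. The 24 falls are 29.6% of the 81 genes, where 21.3% of all genes tested were called lower and 21.2% were called higher. In this fit the share of members called is thus not far above the background. With replicate number as a block in the fit, 53.1% of the members and 26.1% of all genes were called lower.

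Fold changes of the members lay close together. The quartiles were -0.18 and -0.08 in log2 fold change for the 81 members, -0.15 and 0.08 for 2181 other genes with at least 100 CPM, and -0.21 and 0.21 for all genes tested. Ribosome parts outside the name rule had quartiles of -0.12 and -0.02 over 7 genes, a range as narrow as that of the members. The median standard error (SE) of a member was 0.06. In 32 members, 20 large and 12 small, every SRF KO value was below every WT value (39.5%, against 26.5% of all genes tested). Of the 24 members that fell, 23 had separated groups. The exception was Rpl27, where WT replicate 2 at 404 CPM lay below SRF KO replicate 1 at 411 CPM. Of 78 abundant members, with at least 100 CPM in WT, 24 were called lower, which is 30.8%. Of 2181 other genes with a mean of at least 100 CPM over all libraries, 552 were called lower, which is 25.3%. This second set thus includes genes that reach the level through SRF KO alone. The medians were -0.13 and -0.04.

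**Figure D1:**
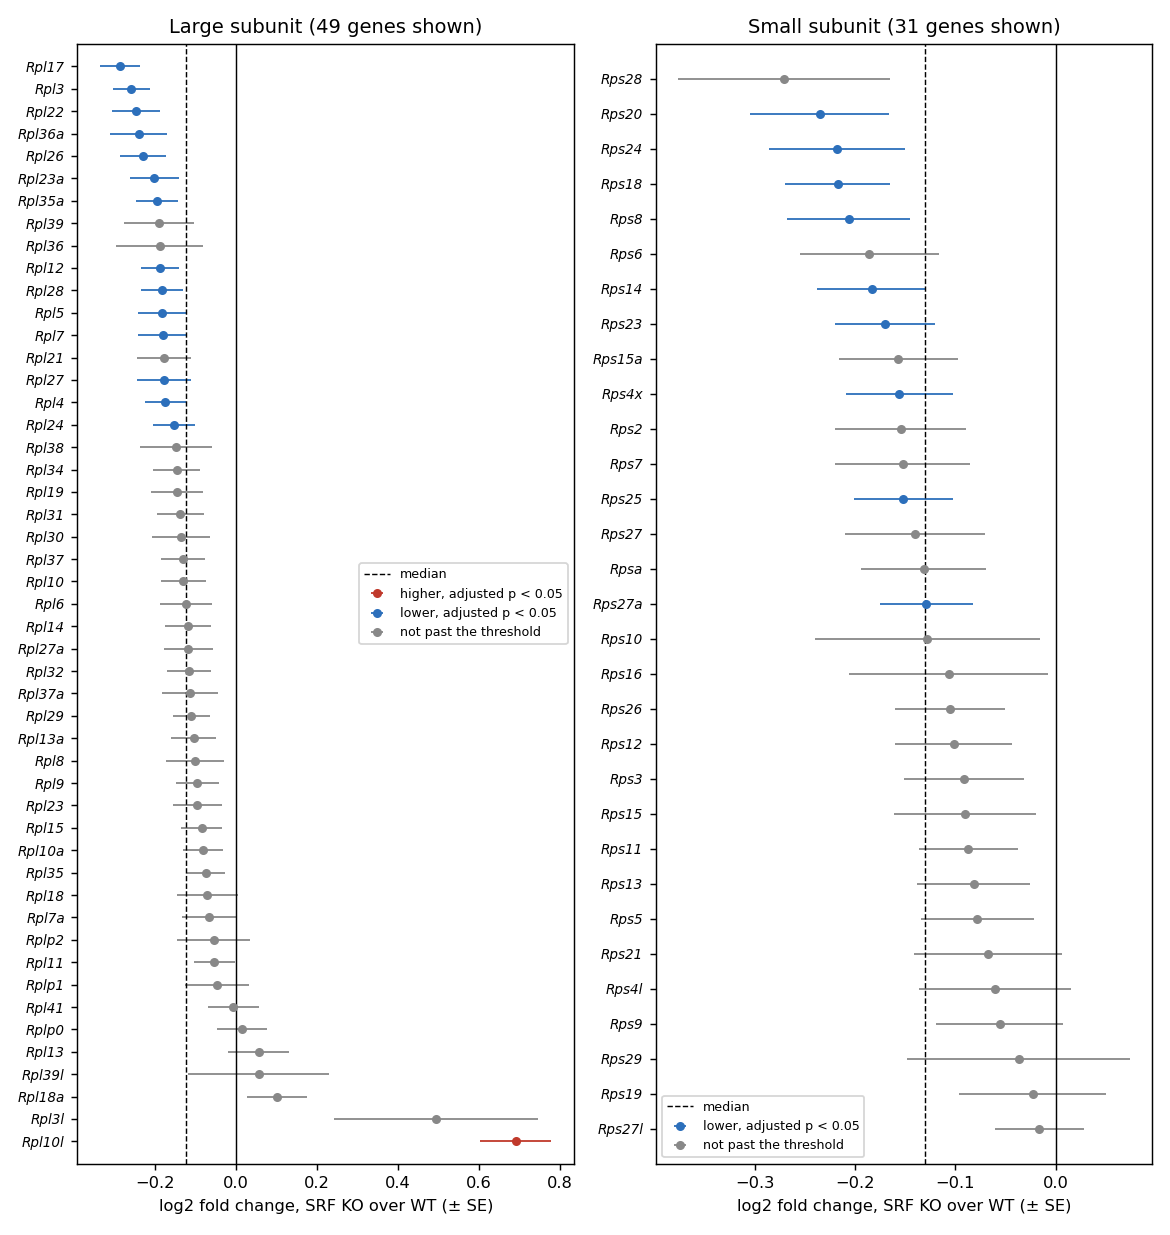
Log2 fold change of SRF KO over WT (horizontal axis, bars are ± SE) for the 49 large subunit genes and 31 of the 32 small subunit genes, with members that fell in blue, the one that rose in red and the rest in grey; the dashed line is the median over all 49 and all 32, -0.12 and -0.13. Most genes lie in a narrow band left of 0, with Rpl10l at 0.69 and Rpl3l at 0.49, which did not pass, far to the right; the horizontal scales of the panels differ.

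Measured without any scaling factor, the 81 genes took 6.16%, 6.08% and 6.16% of all gene counts in SRF KO replicates 1, 2 and 3, and 6.73%, 6.35% and 6.56% in WT replicates 1, 2 and 3. The means were 6.13% ± 0.0488 and 6.54% ± 0.191 (SD, n = 3 each), a difference of -0.41 percentage points with no overlap between groups. The large subunit genes took 3.84% ± 0.0256 against 4.08% ± 0.0889 in WT, and the small subunit genes 2.29% ± 0.0269 against 2.46% ± 0.109 (SD, n = 3 each). The ratio of large to small subunit counts was 1.68 ± 0.0138 in SRF KO against 1.66 ± 0.0473 for WT (SD, n = 3 each), a difference smaller than the spread between WT libraries. In bulk RNA, a lower share of cells with high ribosomal protein expression and less of these mRNAs per cell cannot be told apart.

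**Figure D2:**
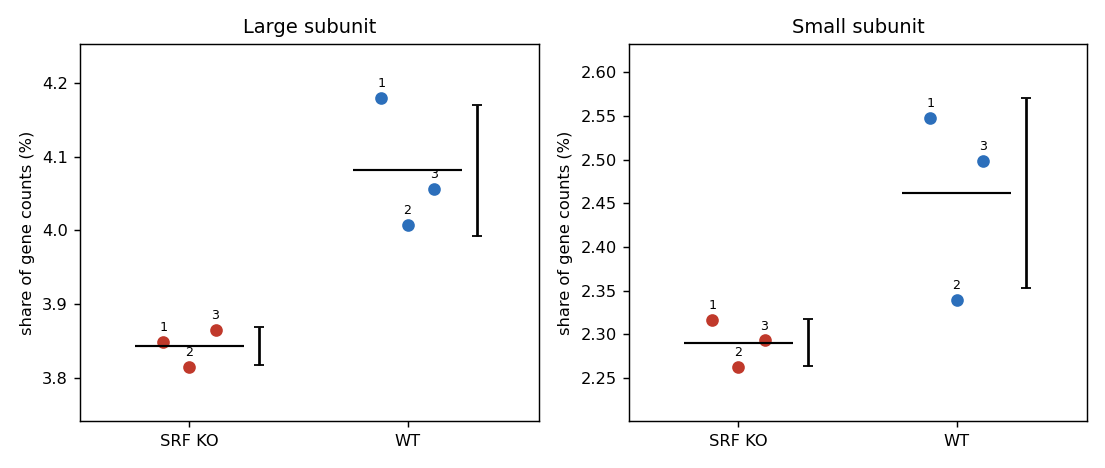
Share of all gene counts (percent, vertical axis; the axes do not start at 0) taken by large and by small subunit genes in each library, numbered by replicate, with the group mean as a line and the SD as a bar. The SRF KO libraries lie close together and below the WT libraries in both panels, and WT replicate 2 is the lowest WT library in both.

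The WT libraries were less alike than the SRF KO libraries for these genes. Over the 78 abundant members the median coefficient of variation was 2.79% in SRF KO and 7.31% in WT, and it was 3.65% in WT without replicate 2. WT replicate 1 held the highest of all 6 values for 47 of the 78 genes. WT replicate 2 was the lowest of the WT libraries for 48 genes and the highest for 17. Relative to the mean of the other WT libraries it ranged from -0.54 (Rps10) to 0.27 (Rpl38) on the log2 scale, with 22 genes under -0.2 and 4 over 0.2.

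Many of the calls depended on single libraries. Without WT replicate 2, 58 members fell, 31 large and 27 small, among them all 24 that fell with all libraries, and the medians were -0.14 and -0.16; in that fit 25.4% of all genes tested were called lower. Without WT replicate 1, by contrast, 5 large and 3 small subunit genes fell. Leaving out SRF KO replicate 1, 2 or 3 left 7, 11 and 8 large and 2, 6 and 3 small subunit genes that fell, and without WT replicate 3 the counts were 19 and 13. As a share of the 81 members, the falls were below the share of all genes called lower without WT replicate 1 (9.88% against 16.4%), SRF KO replicate 1 (11.1% against 15.2%) or SRF KO replicate 3 (13.6% against 15.5%). They were above it without SRF KO replicate 2 (21.0% against 17.0%), WT replicate 3 (39.5% against 19.3%) or WT replicate 2 (71.6% against 25.4%). Rpl12, Rpl17, Rpl22, Rpl26, Rpl3 and Rps18 were among the members that fell whichever library was left out. The count of falls is therefore uncertain by several fold, while the negative median held in each of these 6 fits.

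The deviation of WT replicate 2 ran with the GC content of the transcript. Across 2132 other abundant genes with a known GC content, its log2 ratio to the other WT libraries had a Pearson r of -0.81 with GC content, and across the 78 members r was -0.38. SRF KO replicate 2 deviated from the other SRF KO libraries in the same way, with r of -0.71 and -0.39. For WT replicate 1 over WT replicate 3, the log2 ratio had an r of -0.42 and -0.33 with GC content. The log2 fold change of the members had an r of 0.36 with GC content, and of 0.05 without WT replicate 2. Across the 2132 other genes this r was 0.06 with all libraries. These are correlations across genes that share the same libraries, not across replicates. GC content was not a term in the fit, and its part in the fold changes was not tested.

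**Figure D3:**
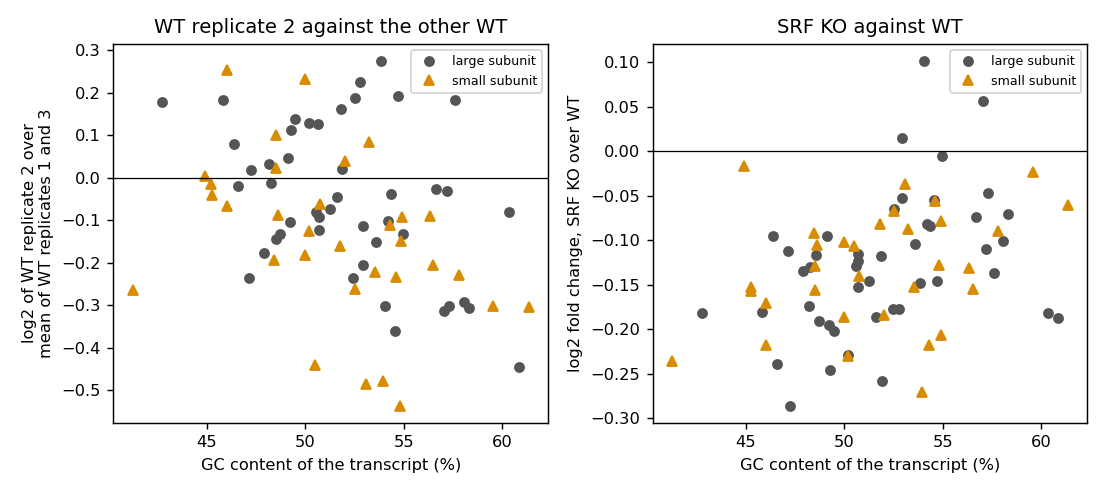
GC content of the transcript (percent, horizontal axis) of the 78 abundant members against the log2 ratio of WT replicate 2 to the mean of WT replicates 1 and 3 (left) and against the log2 fold change of SRF KO over WT (right). Points run downward on the left (r of -0.38) and weakly upward on the right (r of 0.36).

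On a per-length scale the subunits had nearly the same median level, while single members ranged over 20.8-fold among the 78 abundant ones, from 99.3 to 2062 CPM per kb of transcript. Median levels were 888 CPM per kb of transcript for the 46 abundant large subunit genes and 889 for the 32 small subunit genes. The highest were Rpl23a, which sits at the tunnel exit, with 2062 CPM per kb, Rps2 at the mRNA entry with 1999.9, and the stalk protein Rplp1 with 1971. The lowest were the paralogues Rpl3l (0.626 CPM per kb), Rpl39l (2.88) and Rpl10l (10.7). These levels depend on the transcript chosen for the length, which for Rps15a and Rps20 is a long one. Rps15a, with a transcript of 5130 bases, sets the low end of 99.3 CPM per kb. Within the abundant large subunit genes the range was 9.39-fold. Across the abundant members the log2 fold change had an r of 0.05 with the level per kb and of -0.15 with transcript length.

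The members are ordered here by place in the ribosome, beginning with the peptide exit tunnel of the large subunit. These role groups were drawn up after the values had been seen and serve only to order them. With all libraries, 21.3% of all genes tested were called lower and 26.5% had every SRF KO value below every WT value. Without WT replicate 2, 71.6% of the members and 25.4% of all genes tested were called lower. The counts of each role group stand beside these shares. Of 9 tunnel and exit rim genes, 5 fell and 7 had separated groups, with a median of -0.19. Without WT replicate 2, 6 of the 9 fell and the median was -0.16. Rpl17, whose protein lines the tunnel, was at 712, 693 and 719 CPM in SRF KO against 894, 871 and 824 CPM in WT. All SRF KO values lay below all WT values, and the log2 fold change, -0.29 (SE 0.05, edgeR adjusted p = 0.000766), was the largest fall among the members called. Rpl22, on the exit side, stood at 399, 429 and 407 CPM against 501, 514 and 449.5 CPM. Its log2 fold change was -0.25 (SE 0.06, edgeR adjusted p = 0.00575), again with no overlap. Rpl26 (-0.23), Rpl23a (-0.20) and Rpl4 (-0.17) also fell. Rpl39 at -0.19, Rpl19 at -0.15, Rpl31 at -0.14 and Rpl35 at -0.07 did not pass the threshold. The call of Rpl23a was lost without replicate 1 or 3 of SRF KO or replicate 1 of WT (edgeR adjusted p up to 0.0922), and that of Rpl4 without replicate 1 or 2 of SRF KO or replicate 1 of WT (edgeR adjusted p up to 0.104).

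Near the peptidyl transferase centre, where peptide bonds form, 2 of 4 genes fell, with a median of -0.18. Without WT replicate 2, when 71.6% of all members fell, all 4 fell, with a median of -0.21. Rpl3, which reaches into that centre, was at 1514, 1556 and 1529 CPM in SRF KO against 1824, 1850.3 and 1824 CPM in WT. The replicates of each group agreed closely, and the log2 fold change was -0.26 (SE 0.05, edgeR adjusted p = 0.000854). Leaving out any of the 6 libraries kept it between -0.26 and -0.25. Rpl36a, an X-linked gene whose protein lies at the exit site for transfer RNA, was at 320.0, 359 and 289 CPM against 394, 377 and 371 CPM. It fell by 0.24 on the log2 scale (SE 0.07, edgeR adjusted p = 0.018), and this call was lost without replicate 1 or 3 of SRF KO or replicate 1 of WT (edgeR adjusted p up to 0.0936). Rpl10 at -0.13 and Rpl8 at -0.10 did not pass.

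The stalk recruits the translation GTPases. Of its 4 genes, 1 fell, with a median of -0.05, which became -0.15 with 3 falls without WT replicate 2. Rplp0 was at 1780.4, 1735 and 1791 CPM in SRF KO against 1779, 1589 and 1884 CPM in WT, with the SRF KO values inside the WT range. The log2 fold changes were 0.01 (SE 0.06) for Rplp0, -0.05 (SE 0.08) for Rplp1 and -0.06 (SE 0.09) for Rplp2. Without WT replicate 2, Rplp1 and Rplp2 fell (edgeR adjusted p = 0.0225 and 0.0129). Rpl12 at the base of the stalk fell by 0.19 (SE 0.05, edgeR adjusted p = 0.00753).

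Rpl5 and Rpl11 carry the smallest ribosomal RNA into the large subunit and, with Rpl23, can bind the p53 regulator MDM2. Rpl5 was at 1298, 1344 and 1279 CPM in SRF KO against 1468, 1606 and 1372 CPM in WT. The groups did not overlap, and the log2 fold change was -0.18 (SE 0.06, edgeR adjusted p = 0.0315). That call was lost without WT replicate 1 or any of the 3 SRF KO libraries (edgeR adjusted p up to 0.123) and with scaling by library totals only. Rpl11 at -0.05 (SE 0.05) and Rpl23 at -0.10 (SE 0.06) did not pass. Rpl23 fell without WT replicate 3 (edgeR adjusted p = 0.0287). Rpl38, known in mice for its part in the translation of Hox mRNAs, was at -0.15 (SE 0.09) and did not pass.

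In the small subunit, the head held 5 of the 10 genes that fell, out of 10 head genes, with a median of -0.13. Without WT replicate 2, when 71.6% of all members fell, all 10 head genes fell and their median was -0.21. Rps20 was at 565, 581 and 549 CPM in SRF KO against 709, 586 and 699 CPM in WT. The groups were separated only by the step from 581 to 586 CPM, set by WT replicate 2, and the log2 fold change was -0.24 (SE 0.07, edgeR adjusted p = 0.0177). Rps18 was at 652, 611 and 647 CPM against 762, 702 and 755 CPM, which is -0.22 in log2 fold change (SE 0.05, edgeR adjusted p = 0.00593). Every SRF KO library was below every WT library. Rps25 and Rps27a also fell. Rps27a, which is made as a fusion with ubiquitin, stood at -0.13 in log2 fold change (SE 0.05, edgeR adjusted p = 0.0421), and it no longer passed under DESeq2 or with 3 of 4 other scalings of the library sizes. The calls of Rps20, Rps25 and Rps27a were lost without replicate 1 or 3 of SRF KO or replicate 1 of WT, with adjusted p up to 0.081, 0.145 and 0.169, and those of Rps25 and Rps27a also without SRF KO replicate 2.

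Elsewhere in the small subunit, Rps24 was at 985, 1001 and 999 CPM in SRF KO against 1112, 1296 and 1064 CPM in WT. It fell by 0.22 (SE 0.07, edgeR adjusted p = 0.0233), with WT replicate 2 the highest library, and the call was lost without any 1 of the 3 SRF KO libraries (edgeR adjusted p up to 0.0873). Rps6, the classic substrate of the S6 kinases below mTOR, was at 1282, 1397 and 1283 CPM against 1456, 1667 and 1383 CPM. Its groups overlapped and its log2 fold change of -0.19 (SE 0.07) had an edgeR adjusted p of 0.0508, just beyond the threshold; it passed without WT replicate 3 (edgeR adjusted p = 0.0125) and under DESeq2 and limma voom. Rpsa, which is also known as a laminin receptor, was at 1683, 1492 and 1704 CPM against 1753, 1708 and 1882 CPM. Its groups did not overlap, but -0.13 (SE 0.06) did not pass with all libraries (edgeR adjusted p = 0.115) and passed without WT replicate 2 (edgeR adjusted p = 0.0277). In the decoding centre, where codon and anticodon are matched, Rps23 fell by 0.17 and Rps15 at -0.09 did not pass. None of Rps2, Rps3 and Rps9 at the mRNA entry passed in edgeR, DESeq2 or limma voom, and 1 of the 3 had an unadjusted p under 0.05 in edgeR. Without WT replicate 2 all 3 fell (edgeR adjusted p = 0.00112, 0.00553 and 0.0135). At the mRNA exit 1 of 4 genes fell, Rps14 (-0.18). The calls of Rps23 and Rps14 were lost without SRF KO replicate 1 or WT replicate 1, and without SRF KO replicate 3 for Rps23 and SRF KO replicate 2 for Rps14 (edgeR adjusted p up to 0.101 for each). Rps28, also at the exit, stood at -0.27 in log2 fold change (SE 0.11) without passing (edgeR adjusted p = 0.0595). Its WT values were 320.3, 227 and 313 CPM, and WT replicate 2 lay below all 3 SRF KO values of 254, 232 and 228 CPM. Without that library Rps28 fell by 0.41 (edgeR adjusted p = 2.97e-06), and 3 of the 4 exit genes and both decoding centre genes fell.

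**Figure D4:**
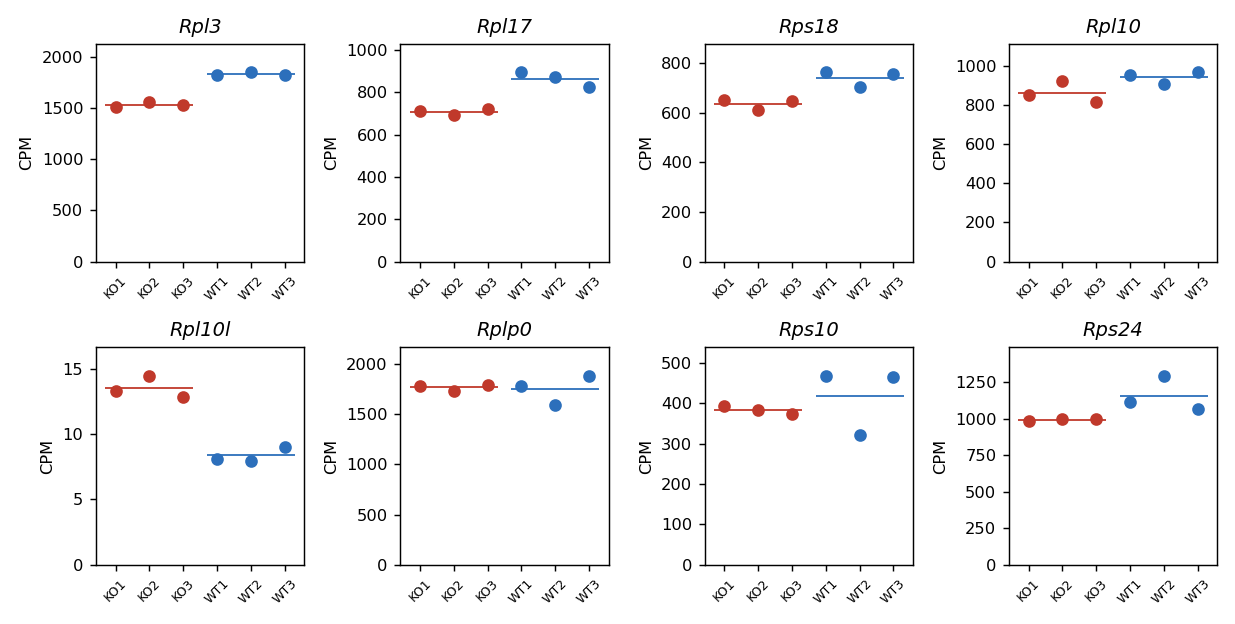
Level in CPM (vertical axes from 0) of 8 members in each library, SRF KO in red and WT in blue, with group means as lines. Rpl3, Rpl17 and Rps18 separate the groups, Rpl10l is higher in SRF KO, Rplp0 overlaps, and Rps10 and Rps24 show WT replicate 2 as the lowest and the highest WT library.

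Rpl10l was the one member that rose. It is an intronless autosomal copy of the X-linked Rpl10, known from the male germ line. It was at 13.3, 14.5 and 12.8 CPM in SRF KO against 8.09, 7.97 and 9.03 CPM in WT, and all SRF KO values lay above all WT values. The log2 fold change was 0.69 (SE 0.09, edgeR adjusted p = 8.0e-05), and it stayed between 0.65 and 0.75 when any 1 library was left out. Rpl10 itself was at 852, 922 and 816 CPM against 955, 909 and 968 CPM, which is -0.13 in log2 fold change (SE 0.06, edgeR adjusted p = 0.0867) with overlapping groups. It passed without WT replicate 2 or SRF KO replicate 2, with an adjusted p down to 0.0127. Rpl10l mRNA thus remained at a small fraction of Rpl10 mRNA: its raw counts were 0.847% to 1.57% of those of Rpl10 over the 6 libraries.

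The coding sequences of both genes are 642 bases long and 84.7% identical, with 98 mismatches and a longest shared run of 23 bases. This bears on whether 150-base reads can be told apart, and how reads matching several genes were counted is not given in the sources used here. In GENCODE M21 on GRCm38, Rpl10l is 1 exon on chromosome 12 at chr12:66283379-66284401, minus strand, and no other tested gene overlaps it. Rpl10 lies at chrX:74270812-74273135, plus strand. Their first 150 coding bases are shown because they hold 25 of the mismatches, marked by capitals:
Rpl10: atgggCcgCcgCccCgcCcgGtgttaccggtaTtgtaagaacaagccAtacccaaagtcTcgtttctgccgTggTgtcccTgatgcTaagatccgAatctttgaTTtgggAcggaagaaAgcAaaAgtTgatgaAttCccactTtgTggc
Rpl10l: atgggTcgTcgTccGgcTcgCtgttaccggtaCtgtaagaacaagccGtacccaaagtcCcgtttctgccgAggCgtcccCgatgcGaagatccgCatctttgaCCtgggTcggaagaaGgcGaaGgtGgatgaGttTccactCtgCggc

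No other paralogue that was examined rose. Rpl3l, the striated muscle form of Rpl3, was at 1.26, 0.982 and 0.795 CPM in SRF KO against 0.828, 0.739 and 0.558 CPM in WT, and its log2 fold change of 0.49 (SE 0.25) did not pass. Rpl39l, at 1.45 to 1.74 CPM in SRF KO against 1.32 to 1.68 CPM in WT, had 0.06 (SE 0.17). Rps27l, known as a target of p53, was nearly level over the libraries at 143 to 148 CPM, with -0.02 (SE 0.04) against -0.14 (SE 0.07) for Rps27. Rps27 fell without WT replicate 3 (edgeR adjusted p = 0.0304). Rps4x fell by 0.16 (SE 0.05, edgeR adjusted p = 0.0357), a call lost without WT replicate 1 or any 1 of the SRF KO libraries (edgeR adjusted p up to 0.158) or with scaling by library totals or DESeq2 size factors. Rps4l was at -0.06 (SE 0.08) and passed without WT replicate 2 (edgeR adjusted p = 0.00963). Rpl22l1 at -0.14 (SE 0.09) and Rpl36al at -0.10 (SE 0.05) did not pass, while Rpl22 and Rpl36a fell. The difference between the members of a pair was not tested. Some rows cannot be separated at all: Rps27rt, whose coding sequence is 100% identical to that of Rps27, held 99.5% to 99.8% as many counts as Rps27, and Rpl34-ps1 held 98.8% to 99.4% as many as Rpl34. The same reads may stand in both rows, so levels of Rps27 and Rpl34 are uncertain. By whole gene span, a further 16 members overlap a tested gene on the opposite strand, among them Rpl3, Rpl12, Rpl28 and Rps18. Without stated strand, reads from an overlapping stretch cannot be told apart from those of that gene. How much of the exons overlaps was not examined.

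Promoter sequence was available for 60 of the 81 members from the RefSeq table of GRCm38.p6, which gives 250 bases before and 50 after each start. A pyrimidine tract, here a C followed by at least 6 pyrimidines that begins between 20 bases before the start and the end of the window, on the sense strand, was found in 48 of 60 members (80.0%) and in 33.1% of 10970 tested genes with a promoter. An ETS motif, CCGGAAG on either strand, was found in 41.7% of members and 18.5% of genes. A YY1 motif, AAGATGG on either strand, was found in 15.0% and 7.99%. TATAAA on either strand was found in 6 of 60 members and 9.08% of genes. A CArG box, the motif of SRF, was found in 1 of the 60 (1.67%, Rpl10a, which did not pass) and in 165 of 10970 genes, and in 0 of the 15 members that fell and had a promoter. Of those 15, 11 held the tract and 3 the ETS motif. Overlap of the ETS and YY1 motifs with the tract was allowed. A match is only a match of letters in this window.

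The windows from 90 bases before to 30 bases after the start are shown for 3 members that fell and for Rpl10l, the copy that rose. In Rpl28 and Rps18 a pyrimidine tract spans the start, whereas in Rpl26 the only tract marked begins 24 bases after it and reaches the end of the window. Capitals mark an ETS motif (CCGGAAG, in Rpl26 and Rps18) and the pyrimidine tract (Rpl26, Rpl28 and Rps18); Rpl10l held neither. In order they lie at chr11:68901476-68901595 (plus), chr7:4792875-4792994 (plus), chr17:33955636-33955755 (minus) and chr12:66284372-66284491 (minus):
Rpl26: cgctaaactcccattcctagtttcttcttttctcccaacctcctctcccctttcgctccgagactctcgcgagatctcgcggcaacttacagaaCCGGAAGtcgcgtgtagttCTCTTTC
Rpl28: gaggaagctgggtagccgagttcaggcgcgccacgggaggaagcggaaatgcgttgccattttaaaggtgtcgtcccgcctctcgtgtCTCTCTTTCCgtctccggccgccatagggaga
Rps18: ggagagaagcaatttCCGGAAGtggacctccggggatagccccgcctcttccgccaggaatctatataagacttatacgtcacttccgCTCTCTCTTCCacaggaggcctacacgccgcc
Rpl10l: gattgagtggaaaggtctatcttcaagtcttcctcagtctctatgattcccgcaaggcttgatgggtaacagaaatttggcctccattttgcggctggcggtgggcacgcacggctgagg

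Many members carry small nucleolar RNA genes in their introns. Of the 78 abundant members, 29 hold at least 1 such gene and 49 hold none, and their median log2 fold changes were -0.13 and -0.14.

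Ribosome assembly factors had mostly positive fold changes, in 47 of 58 genes. Of these 58 ribosome assembly factors and nucleolar proteins tested, 18 rose and 0 fell, with a median of 0.10. For comparison, 21.2% of all genes tested were called higher and 21.3% lower. None of the 58 was lower at an unadjusted p under 0.05, and DESeq2 and limma voom called 0 lower. The smallest p values were those of Utp4, Heatr3 and Nob1. Utp4 (named Cirh1a in the table), a part of the early small subunit processome, had 0.48 (SE 0.05). Heatr3, which brings Rpl5 into the nucleus, had 0.45 (SE 0.05), and Nob1, the nuclease of small subunit maturation, had 0.34 (SE 0.05). Each kept its call whichever library was left out. Cirh1a was at 207, 221 and 205 CPM in SRF KO against 151, 149 and 153 CPM in WT. The count of 18 was 11 without SRF KO replicate 1 or WT replicate 1 and 31 without WT replicate 2. Among all genes, 2457 of 14962 were called higher without SRF KO replicate 1 and 2580 of 14961 without WT replicate 1. Without WT replicate 2 they were 3652 of 15012. Without WT replicate 3 there was also 1 fall among the 58. Of 15 genes of RNA polymerase I and its factors, which make ribosomal RNA, 5 rose and 1 fell, with a median of 0.07, among them Polr1b at 0.26, Cd3eap at 0.23 and Polr1d at 0.16. The 5 rises became 2 without SRF KO replicate 1 or 3 and 3 without SRF KO replicate 2, and the fall was lost without SRF KO replicate 1 or 3 and joined by another without WT replicate 2. Polr1d lost its call without any 1 of the SRF KO libraries or WT replicate 3 (edgeR adjusted p up to 0.0555).

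The median of other TOP mRNAs was also negative. Of 16 mRNAs of translation factors and similar TOP genes, 5 fell (31.25%) and 1 rose, with a median of -0.10. Of all genes tested, 21.3% were called lower and 21.2% higher. With 1 library left out, between 15.2% and 25.4% of all genes tested were called lower. Eif4b (-0.24, SE 0.05), a partner of the initiation helicase, and the elongation factor gene Eef1g (-0.16, SE 0.05) fell, whereas Vim, the intermediate filament gene vimentin, rose by 0.82 (SE 0.06). The 5 falls became 1 without replicate 1 or 3 of SRF KO or replicate 1 of WT and 2 without SRF KO replicate 2, and Eef1g lost its call in all 4 of these fits (edgeR adjusted p up to 0.114). Of 7 ribosome parts outside the name rule, 0 passed in either direction by edgeR, DESeq2 or limma voom and 0 had an unadjusted p under 0.05 in edgeR, with a median of -0.10; without WT replicate 2 there were 2 falls, and without WT replicate 3 there was 1. Of 24 initiation factors outside the TOP list, 2 fell (8.33%) and 1 rose, with a median of -0.04, led by Eif4a2 (-0.33, SE 0.06). Eif3d (-0.16) fell and Eif2b1 (0.15) rose, but Eif3d lost its call without replicate 1 or 2 of SRF KO or replicate 1 of WT (edgeR adjusted p up to 0.095), and Eif2b1 without replicate 1 or 3 of SRF KO or replicate 1 or 3 of WT (up to 0.218). Without 1 library there were between 1 and 4 falls and between 0 and 3 rises. Of 76 mitochondrial ribosomal protein genes, 2 fell (2.63%) and 1 rose, with a median of -0.02. Mrps10 (-0.29, SE 0.05) and Mrps5 (-0.16) fell and Mrpl12 (0.17) rose. Without WT replicate 2 those counts were 10 and 6, and Mrps5 lost its call without SRF KO replicate 1 or 2 (edgeR adjusted p up to 0.126) and Mrpl12 without SRF KO replicate 1 or 3 (up to 0.0889).

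**Figure D5:**
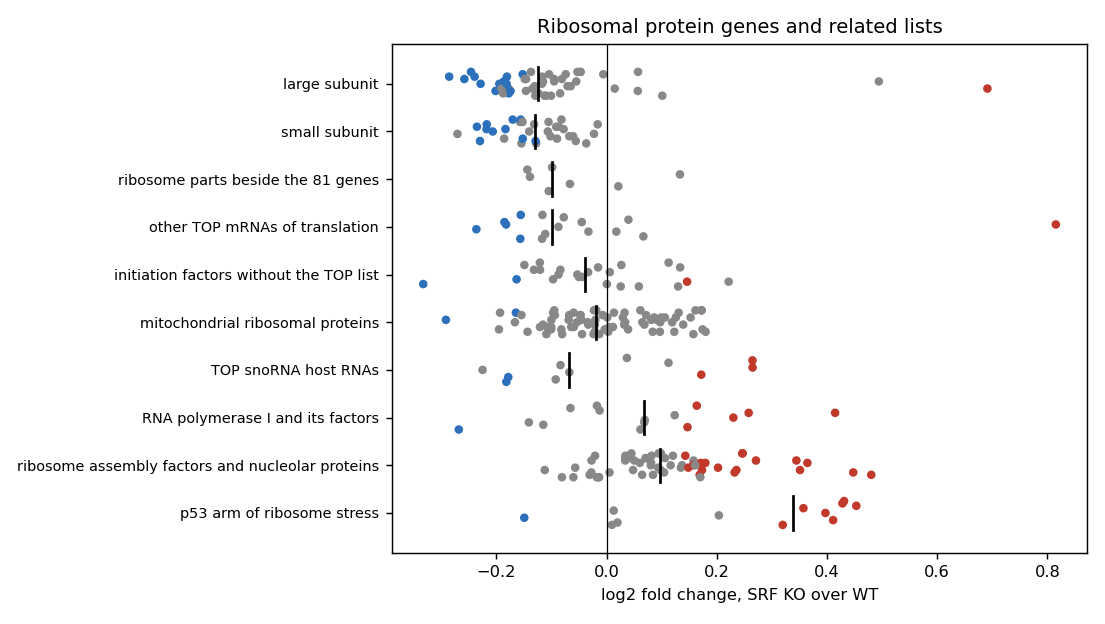
Log2 fold change of SRF KO over WT (horizontal axis) of each gene of both subunits and of 8 related lists; red points rose, blue points fell and grey points did not pass the threshold, and the black bar is the median. Ribosomal proteins lie left of 0 (medians -0.12 and -0.13), assembly factors right of it (0.10), and p53-related genes further right (0.34).

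Regulators of the ribosomal protein programme were called in both directions, with falls less frequent than over all genes. Of 23 mTOR, LARP and MYC regulators, 3 rose and 4 fell (17.4%), with a median of -0.05. Over all genes tested, 21.2% were called higher and 21.3% lower. Myc was at 88.7, 86.2 and 88.6 CPM in SRF KO against 40.6, 41.3 and 41.1 CPM in WT, a rise of 1.10 (SE 0.05), whereas its relative Mycn (-0.30, SE 0.06) and Tsc1 (-0.34, SE 0.05), which restrains mTOR, fell. All 3 calls held whichever library was left out, while the counts of the list became 1 rise without SRF KO replicate 1, 2 rises without SRF KO replicate 3 or WT replicate 1, and 6 falls without WT replicate 2. The other calls of this list were falls of Mtor (-0.20) and Gabpa (-0.21) and rises of Mxd4 (0.67) and Eif4g1 (0.16). Of 11 snoRNA host RNAs, which also begin with TOP motifs, 3 rose and 2 fell (18.2%), with a median of -0.07. Among these were Snhg5 (0.27), Snhg3 (0.17) and Gas5 (-0.18). Gas5 lost its call without replicate 1 or 3 of SRF KO or replicate 1 of WT (edgeR adjusted p up to 0.128), and Snhg3 without replicate 1 or 2 of SRF KO or replicate 1 of WT (up to 0.114). Without 1 library there were between 1 and 3 rises and between 0 and 3 falls.

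Of 12 genes of the p53 arm that surplus ribosomal proteins can trigger, 7 rose and 1 fell, with a median of 0.34. The shares over all genes tested were 21.2% called higher and 21.3% called lower. Ccng1 was at 297, 312 and 309 CPM in SRF KO against 222, 244 and 215 CPM in WT, a rise of 0.43 (SE 0.06). Pmaip1, which encodes the death factor NOXA, rose by 0.41 (SE 0.06), and Mdm2 rose by 0.36 (SE 0.05). The 7 rises were 7 whichever library was left out, and the fall, Mdm4 at -0.15, was lost without replicate 1 or 3 of SRF KO or replicate 1 of WT.

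Markers of other cell types moved with the groups. All 18 fibroblast markers rose, with a summed level of 1603 to 1957 CPM in SRF KO against 782 to 912 CPM in WT. All 15 extraembryonic endoderm markers tested rose, with a summed level of 3501 to 3723 CPM against 589.8 to 619.7 CPM, and Afp did not pass the filter on low counts. Of 15 pluripotent cell markers, 7 fell (46.7%) and 1 rose, with a median of -0.19. The 1 rise was lost without SRF KO replicate 1 or 2 or WT replicate 1 or 3. Among all genes tested, 21.2% were called higher and 21.3% lower. The part of such cells in the levels of ribosomal protein mRNAs was not tested.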

How the data were processed

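The data are a table of whole-number counts per gene and per transposable element subfamily for 3 SRF KO and 3 WT libraries of mouse iPSCs, deposited by the authors without normalization, judged from its values. Reads were paired, 150 bases long, and cleaned of adaptors and low-quality reads, per the labels' protocols. The submitters' processing notes name the build mm10 and DESeq2, without their role. The aligner, the counting rule and the use of strand are not given in the sources used here.

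All 15611 entries that passed filterByExpr (minimum count 10) were fitted together with TMM scaling by edgeR 4.0.16 in R 4.3.3 (quasi-likelihood test, Benjamini-Hochberg adjustment over all entries, threshold 0.05). The scripts were tested on simulated data. Total counts were between 26321602 and 36680156, so counting error is small for abundant members. Coordinates, transcript lengths and GC content came from GENCODE M21 (GRCm38), and promoters from RefSeq (GRCm38.p6). Per-kb levels use the middle-length transcript of the best annotation rank. Alternatives were other scalings, no filter, DESeq2 1.42.0, limma voom (limma 3.58.1), gene entries alone, a stricter threshold, a replicate block and leaving out each library. Chi-square per degree of freedom between replicate libraries was 1.83 to 15.5, so none was a duplicate.

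The members and lists were chosen with earlier results of these data known. Genes named in full are the 4 largest changes per subunit and direction among those past the threshold, the 3 highest and 3 lowest levels per kb, selected members and paralogue pairs, and for each list at most 3 called genes, taken by p. Rpl27, Rps28 and other members, Mdm4, Mtor, Gabpa, Mxd4, Eif4g1 and the role groups were named after their values were seen. Values of a few genes are not reported here.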

Additional observations from a re-analysis of the deposited data

How the results depend on the processing

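The large subunit count of 14 falls became 6 at an adjusted p of 0.01 and the small subunit count of 10 became 2. Leaving out 1 library gave between 5 and 31 falls in the large subunit and between 2 and 27 in the small subunit. The rise of Rpl10l was the 1 large subunit rise in every alternative run, and no small subunit gene rose in any. Among the scalings, the large subunit median of -0.12 moved beyond the spread between replicates only with library totals, to -0.087, and leaving out 1 library gave -0.159 to -0.0854 for it and -0.156 to -0.0853 for the small subunit. With library totals the median over all genes tested moved in the same direction, from -0.013 to 0.024. The difference in the share of gene counts stayed between -0.51 and -0.32 percentage points when 1 library was left out. No value reversed its direction with a call. Outside the leave-one-out fits, DESeq2 and limma voom called 25 members lower each and 23 of the main 24, and library totals alone called 17, all among the 24. Why the counts move was not tested.

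Replicate numbers are shared between the groups, but same-numbered libraries deviated together only weakly (correlations of 0.04, 0.20 and 0.10 over all genes), so they were not taken as pairs. Differently numbered libraries had correlations between -0.19 and 0.11, so the 0.20 of replicate 2 was the highest. Whether same-numbered libraries were handled together was not tested. Replicate 2 of each group deviated with GC content in the same direction (r of -0.81 in WT and -0.71 in SRF KO over 2132 other genes). With the replicate block 26 large and 17 small subunit genes fell, 53.1% of the members, while 26.1% of all genes were called lower in that fit. Depth limits the low paralogues Rpl3l and Rpl39l, at under 2 CPM.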

Other observations

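Of 9 tested rows named as processed copies or retrotransposed forms of ribosomal protein genes, WT replicate 1 held the highest of the 6 values in 7. For Rps15a-ps6 it was at 26.04 CPM, against 7.46 and 5.996 CPM in WT replicates 2 and 3 and 7.77, 14.5 and 9.92 CPM in SRF KO. For Rpl37rt it was at 27.8 CPM against 16.8 and 14.4 CPM in the other WT libraries, and for Rps19-ps3 at 3.53 against 1.44 and 1.604 CPM. WT replicate 1 was also the deepest library. These rows are no members, and the reason for the difference was not tested.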
